A study of Mus musculus with 32 samples.

Results

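Cells with a synthetic IL-23 receptor, Ba/F3-SyCyR(IL-23R), were compared with cells carrying the natural one, Ba/F3-IL-12Rβ1-IL-23R, on the arrays with the even numbers 14, 16, 18 and 20 in their titles. These are 4 arrays of each line, 8 of the 32 arrays of the study, and the lines are called the synthetic line and the natural line here. Ba/F3 is a murine cell line whose growth depends on interleukin-3, and all 4 lines of the study derive from Ba/F3-gp130 cells, which carry human gp130, so this transgene is shared by both groups. Ba/F3-IL-12Rβ1-IL-23R cells additionally carry the natural murine receptor chains IL-23R and IL-12Rβ1. Ba/F3-SyCyR(IL-23R) cells instead carry a synthetic cytokine receptor, in which a GFP-binding nanobody replaces most of the extracellular part of murine IL-23R. They have no added IL-12Rβ1. The array methods give Hyper-IL-6, a fusion protein that stimulates gp130, in the growth medium of Ba/F3-gp130 cells. For the natural line the culture methods also name medium with Hyper-IL-23, a ligand of the natural receptor. Which factor each line was kept on just before the arrays is not stated line by line. Each receptor is represented by 1 retrovirally transduced line, selected on its own with antibiotics and kept in culture for several weeks, so the receptor and the line cannot be told apart. The methods also describe a selection of lines for growth on GFP:mCherry proteins, the general name of the fluorescent ligands, after Hyper-IL-6 had been removed. The ligand used for each line is not named. This step is given for synthetic receptor lines, so the selection history cannot be told apart from the receptor either.

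The even numbers were chosen because Socs3, a feedback inhibitor that cytokine receptors switch on, was low in them. In the synthetic line its log2 signal lay between 8.79 and 9.21 on the even arrays and between 11.75 and 12.06 on the odd ones. In the natural line it lay between 8.2 and 8.44 on the even arrays and between 12.76 and 13.01 on the odd ones. These values defined the arrays and are given as a description with no test. The protocol had cells starved of serum for 3 h before 100 ng/ml of ligand was added for 1 h. The ligand was Hyper-IL-23 for the natural line and 3xGFP for the synthetic line, with supernatant of untransfected CHO-K1 cells as the control. Ligand and line therefore cannot be told apart wherever ligand was added. Which arrays received ligand is not in the labels, so the even arrays are not called unstimulated here. The methods describe 4 independent biological replicates per state. Since no label ties an array to a culture, p-values measure the spread between these arrays, which may be technical.

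IL-23 signals through a pair of chains. IL-12Rβ1 binds the kinase TYK2 and IL-23R binds JAK2, and the phosphorylated IL-23R tail recruits STAT3, a transcription factor that switches on Socs3, Pim kinases and Bcl6 among others. A receptor whose outer part is a nanobody leaves these intracellular steps to be started by a fluorescent protein ligand. Ba/F3 cells are also used as a clean background for such receptors because they do not need them to live while IL-3 or, with gp130, IL-6 type signals are supplied.

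Signals are RMA values on a log2 scale, and differences are given as the synthetic line minus the natural line. Array medians lay between 6.99 and 7.02 in the first line and between 7.02 and 7.06 in the second. Arrays of 1 line correlated at 0.993 or more and arrays of different lines at 0.9864 to 0.991 over all probe sets. Signals below 7.04, the median of all probe set means, are called in the background range here, although background itself was not measured. They are not shown to be above background, and a fold change against such a signal is given as "at least". The fold and the log2 difference beside it are fitted values. The words "at least" refer to the dim signal alone and do not allow for sampling error. Of the markers that define pro-B cells, Cd79a and Cd79b, which encode parts of the B cell receptor complex, were above 7.04 on all 8 arrays. Pax5, Ebf1, Vpreb1, Rag1, Il7r and Blnk were below it on all 8, so the pro-B label rests on few markers in these values. Of 5 defining erythroid and megakaryocyte markers, Gata1, Klf1, Epor and Itga2b were above 7.04 on all 8 arrays and Pf4 was below it.

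Of 23410 probe sets with a gene symbol, 704 (3.01%) differed between the lines by 1.5-fold or more with an adjusted p under 0.05 in limma, 355 (1.52%) with a higher and 349 (1.49%) with a lower signal in the synthetic line. The 4 and 4 arrays of 674 of these probe sets did not overlap, against 16.6% of all probe sets without overlap. The odd arrays share no array with this comparison, but they come from the same 2 lines and are no independent replicate of them. No label says whether an odd and an even array share a culture. In the odd arrays the same test called 798 probe sets (3.41%), 366 higher (1.56%) and 432 lower (1.85%). Of the even calls 527 were called in the same direction in the odd arrays, which is 74.9% of the even and 66.0% of the odd calls. The sign was the same in the odd arrays for 685 of the 704, and for 68.7% of all probe sets.

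**Figure D1:**
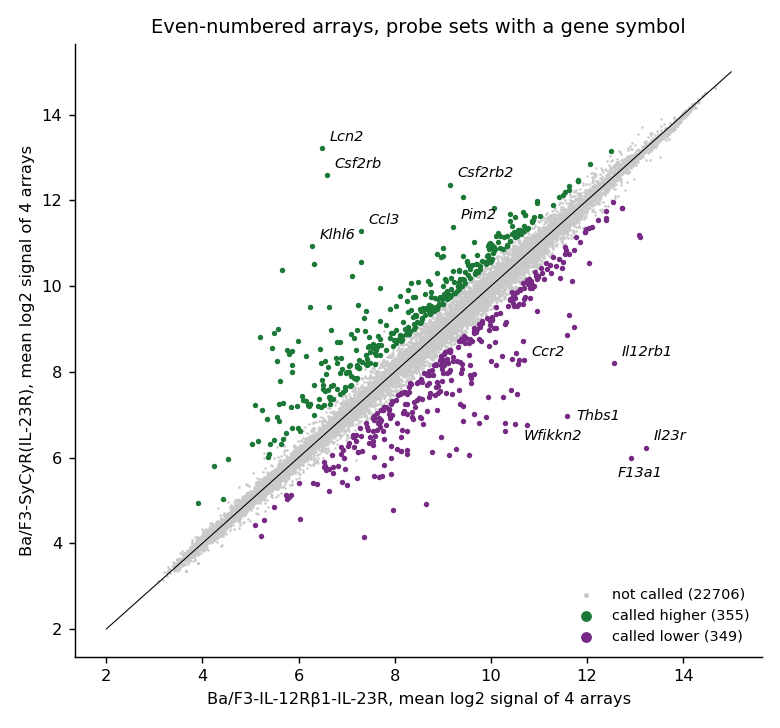
Mean log2 signal of each of 23410 probe sets over the 4 even-numbered arrays of the natural line (horizontal) and of the synthetic line (vertical), with the line of equal signal in black. Colored points are the 355 probe sets called higher and the 349 called lower in the synthetic line, and Lcn2, Csf2rb, Il23r and F13a1 lie farthest from the line.

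The receptor genes themselves separated the lines. Il23r read 5.95, 6.54, 6.24 and 6.19 on arrays 14, 16, 18 and 20 of the synthetic line and 13.23, 13.20, 13.28 and 13.23 in the natural line. All 4 values of the synthetic line were low and none came near those of the natural line. This was a difference of at least 128-fold (-7.00 on the log2 scale, SE 0.10, adjusted p = 1.1e-11 from limma). The synthetic receptor keeps the murine transmembrane and intracellular parts of IL-23R, yet against Ba/F3-gp130, which lay between 6.41 and 6.78, 1 of its 4 arrays was in range and 3 were lower (log2 difference -0.35, adjusted p = 0.094 from limma). The position of its probes in the transcript was not known here.

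Il12rb1 was 8.26, 8.24, 8.04 and 8.27 in the synthetic line and 12.63, 12.50, 12.43 and 12.69 in the natural line, again without overlap. The fold difference was 20.5 (-4.36 on the log2 scale, SE 0.08, adjusted p = 2.7e-11 from limma). Array 18 of the synthetic line was the lowest of its 4. Il6st, the murine gene for gp130, lay between 5.83 and 5.98 on all 8 arrays, with a difference of -0.03 (95% interval -0.15 to 0.09). All these values are in the background range, and it was not known here whether the probe set reads the human transgene. Il12rb2, the neighbor of Il23r on chromosome 6 and the second chain of the IL-12 receptor, was the other way round. It lay between 9.73 and 10.20 in the synthetic line and between 8.14 and 8.51 in the natural line (log2 difference 1.73, SE 0.12, adjusted p = 4.5e-06 from limma). The 2 lines thus did not overlap for Il23r, Il12rb1 and Il12rb2, with Il12rb2 the one higher in the synthetic line. Absence of overlap was not particular to them. Of 31 measured IL-12 family and JAK-STAT genes without Socs3, 9 were higher and 9 lower without overlap, and 16.6% of all probe sets did not overlap. In Ba/F3-gp130 Il12rb2 lay in between, at 9.34 to 9.71.

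The chains of the IL-3 receptor family also differed. Csf2rb encodes the common β chain that carries the signal of IL-3, GM-CSF and IL-5. It read 12.51, 12.33, 12.73 and 12.81 in the synthetic line and 6.70, 6.80, 6.36 and 6.50 in the natural line. The synthetic line was near Ba/F3-gp130 (12.75 to 12.98), and the natural line was in the background range on all 4 arrays. The signal was at least 64.2-fold higher in the synthetic line (log2 difference 6.0, SE 0.12, adjusted p = 5.7e-11 from limma).

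Csf2rb2, its neighbor on chromosome 15, encodes the mouse β chain specific for IL-3 and is close to Csf2rb in sequence, so the 2 probe sets may share signal. It lay between 12.21 and 12.57 in the synthetic and between 8.56 and 9.42 in the natural line (log2 difference 3.21, SE 0.16, adjusted p = 3e-07 from limma). The α chains did not pass the test. Il3ra differed by -0.09 (95% interval -0.28 to 0.10), Csf2ra by 0.11 (-0.05 to 0.27) and Il5ra, with all values in the background range, by 0.03 (-0.12 to 0.17). Only the β chains were called among these 5 genes, and both were higher in the synthetic line. Over all genes 1.63% were called higher and 1.5% lower, and with shared signal the 2 calls may not be separate.

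Further IL-12 family and JAK-STAT components moved in both directions. Without Socs3, 5 of 31 measured genes were higher and 4 lower, where 1.63% of all 19938 genes were called higher and 1.5% lower. The median difference was 0.02 beside 0.016 over all genes, and each gene is 1 probe set that names no other gene. Higher were Il12rb2, Il10rb, Ifngr2, Stat4 and Cish, and lower were Il23r, Il12rb1, Ifngr1 and Ptpn6. The 2 chains of the interferon-γ receptor therefore differed in opposite directions. Ifngr2 lay between 11.50 and 11.96 in the synthetic and between 10.21 and 10.58 in the natural line (log2 difference 1.30, SE 0.11, adjusted p = 1.4e-05 from limma), whereas Ifngr1 differed by -0.75 (SE 0.10, adjusted p = 0.00042 from limma). Ptpn6, which encodes the phosphatase SHP-1, differed by -0.81 (SE 0.08, adjusted p = 4.2e-05 from limma). Stat4 had a median of 6.41 in the synthetic line and of 5.17 in the natural one, both in the background range.

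The 12 largest differences in each direction, among calls without overlap, are given next, and each of the 24 genes kept its direction in the odd arrays. The most different gene that is higher in the synthetic line was Lcn2, which encodes the iron-siderophore binding protein lipocalin 2 of neutrophil granules. It read 13, 13.78, 12.63 and 13.45 on arrays 14, 16, 18 and 20 of this line and 6.49, 7.26, 6.21 and 6.0 in the natural line. The synthetic line was bright on all 4 arrays and the natural line was below 7.04 on all but array 16, a difference of at least 106-fold (log2 difference 6.72, SE 0.28, adjusted p = 4.4e-08 from limma). Ba/F3-gp130 lay between them, from 9.39 to 11.65.

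After Lcn2 and Csf2rb, described above, came B3gnt5 and Klhl6, genes 2 places apart on chromosome 16. B3gnt5, which encodes a glycosyltransferase that starts lacto-series glycolipid chains, lay between 10.03 and 10.53 in the synthetic and between 5.46 and 5.84 in the natural line. Klhl6, a gene of B cell receptor signaling, lay between 10.78 and 11.04 and between 6.15 and 6.49. The 2 lines were far apart for both, by at least 26.0-fold (log2 difference 4.70, SE 0.11, limma adjusted p = 3.9e-10) and at least 25.2-fold (log2 difference 4.65, SE 0.08, adjusted p = 3e-11 from limma).

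Ccl3 encodes the chemokine MIP-1α and had the largest SD within a line among the genes named by rule (1.27 in the synthetic line). It read 10.36, 12.87, 10.15 and 11.76 in the synthetic line and 7.42, 7.68, 6.72 and 7.38 in the natural line. Arrays 16 and 20 of the synthetic line were higher than 14 and 18, yet each of the 4 was above each array of the natural line (log2 difference 3.99, SE 0.49, adjusted p = 0.0003 from limma).

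The other 6 of the 12, beside Csf2rb and Csf2rb2, were Anxa3, Akr1e1, Ifitm6, Rnase6, Igsf6 and Milr1. In 4 of them the natural line was in the background range. Anxa3, which encodes a calcium-dependent membrane binding protein, was at least 18.5-fold higher in the synthetic line, the reductase gene Akr1e1 at least 12.3-fold, Ifitm6, of the interferon-induced transmembrane family, at least 10.8-fold and Igsf6, an immunoglobulin-like surface protein gene, at least 9.58-fold. The ribonuclease gene Rnase6 was 9.62-fold higher, and Milr1, an immunoglobulin-like receptor gene known from mast cells, was 8.69-fold higher.

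Among the genes lower in the synthetic line, F13a1 followed Il23r. The gene, for a subunit of the clotting factor XIII, read 6.0, 6.16, 5.85 and 5.98 in the synthetic line against 12.99, 13.24, 12.65 and 12.82 in the natural line. The synthetic line was at the level of Ba/F3-gp130 (5.94 to 6.23), and the natural line was at least 122-fold brighter (log2 difference -6.93, SE 0.11, adjusted p = 2e-11 from limma). Thbs1, the gene of the matrix protein thrombospondin 1, lay between 6.83 and 7.14 in the synthetic line and read 11.99, 12.55, 10.07 and 11.75 in the natural line. Array 18 was the low one there, and the difference was still at least 24.6-fold (log2 difference -4.62, SE 0.40, adjusted p = 2.3e-05 from limma).

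Wfikkn2, which encodes an inhibitor of growth differentiation factors, had the reverse relation to the parental cells. It lay between 6.61 and 6.94 in the synthetic line, between 10.26 and 10.84 in the natural line and between 10.28 and 10.61 in Ba/F3-gp130. The synthetic line alone was low, by at least 13.1-fold against the natural line (log2 difference -3.71, SE 0.12, adjusted p = 3.4e-09 from limma). A second probe set of Wfikkn2 differed by -1.64. The remaining 7 of the 12 were Gask1b, Trgv1, S100a6, Tek, Sparc, Olfr857 and Ddx43, lower by between at least 9.15-fold (Ddx43) and at least 16-fold (Gask1b). Tek encodes the angiopoietin receptor TIE2, Sparc a matrix protein, S100a6 a calcium binding protein, Trgv1 a T cell receptor γ variable segment, Olfr857 an olfactory receptor and Ddx43 an RNA helicase. Their signals in the synthetic line were all below 7.04.

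**Figure D2:**
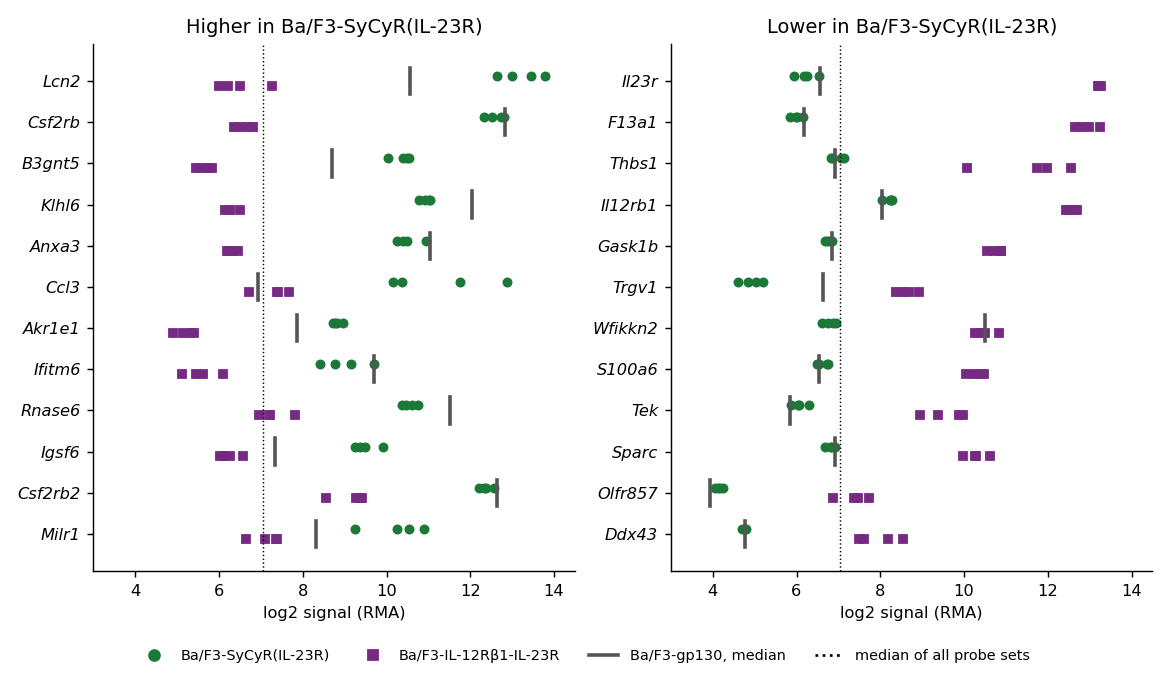
Log2 signal of the 12 genes with the largest differences in each direction on each even-numbered array of the synthetic line (circles) and the natural line (squares), with the median of the 4 even-numbered Ba/F3-gp130 arrays as a bar and the median of all probe sets (7.04) as a dotted line. For most genes on the right the bar lies with the circles, and for Wfikkn2 it lies with the squares.

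The parental cells placed these 24 differences. Against the 4 even-numbered arrays of Ba/F3-gp130, which both lines share as their reference, limma called 330 probe sets in the synthetic line (1.41%; 0.773% higher, 0.636% lower) and 584 in the natural line (2.49%; 1.38% higher, 1.11% lower). Of the 24 genes, 14 were called against the parental cells in the natural line alone, 3 in the synthetic line alone and 7 in both. The 3 were Ccl3, Milr1 and Wfikkn2. Lcn2 was one of the 7, 2.67 above Ba/F3-gp130 in the synthetic line (adjusted p = 0.00022 from limma) on the log2 scale, while the natural line differed from Ba/F3-gp130 by -4.05 (adjusted p = 5.6e-07 from limma). Csf2rb differed from Ba/F3-gp130 by -0.26 in the synthetic line (adjusted p = 0.18 from limma) and by -6.26 in the natural line (adjusted p = 1.9e-17 from limma).

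Of 24 measured STAT3 target genes other than Socs3, 9 were higher in the synthetic line, none was lower, 15 did not pass the test and the median difference was 0.23, where 1.63% of all genes were called higher and 1.5% lower. The 9 were Lcn2, Pim2, Il6, Cebpd, Lif, Nfil3, Cebpb, Bcl6 and Osm. Pim2, a serine/threonine kinase gene for cell survival, read 11.32, 11.57, 10.86 and 11.80 in the synthetic line and 9.02, 8.92, 9.25 and 9.68 in the natural line. All arrays of the synthetic line were higher, by 4.5-fold (log2 difference 2.17, SE 0.20, limma adjusted p = 3.6e-05), and 1.75 above Ba/F3-gp130 (adjusted p = 5.4e-06 from limma).

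The cytokine gene Il6 read 10.53, 11.14, 10.74 and 11.38 in the synthetic and 9.63, 9.46, 10.06 and 10.62 in the natural line. The lines overlapped by 1 array, the natural array 20 lying above the synthetic array 14 (log2 difference 1.00, SE 0.24, adjusted p = 0.019 from limma). The call was lost without array 14 or 16 of the natural or 16 or 20 of the synthetic line. Cebpd, the gene of a C/EBP transcription factor, differed by 0.81 (SE 0.11, adjusted p = 0.00069 from limma) and the repressor gene Nfil3 by 0.68 (adjusted p = 0.00012 from limma). The cytokine genes Lif (0.76) and Osm (0.60) and the repressor gene Bcl6 (0.63) were of similar size, with medians in the background range in the natural line for Lif (6.71) and Bcl6 (6.96). Bcl6 and Cebpd lie on chromosome 16, whose genes were shifted together as described further on. Without array 14 of the natural or array 16 of the synthetic line 6 of the 24 were called higher. Pim1, Myc and Mcl1, which are also STAT3 targets, differed by -0.04, -0.01 and -0.01 and did not pass the test.

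On the odd arrays 1 of the 24 targets, Lcn2, was higher in the synthetic line and 7 were lower, with a median of -0.35. Of all probe sets 1.56% were called higher and 1.85% lower there. Osm lay between 10.97 and 11.26 in the synthetic and between 12.19 and 12.72 in the natural line, a difference of -1.41. Nfil3 (-1.32), Lif (-1.13), Il6 (-1.09) and Bcl6 (-0.88) were likewise lower, and Pim2 differed by 0.28 (adjusted p = 0.43 from limma). Pim2 on the even arrays of the synthetic line, 10.86 to 11.80, covered its values on the odd arrays of the natural line, 11.27 to 11.55. Among all 704 even calls 19 had the other sign in the odd arrays. Of these Osm, Nfil3, Lif, Il6, Cish, Bcl6, Ier3 and B4galt5 were called there as well. Socs3 is among the 19 too, but it defined the array sets, so its sign is not a result. Whether the line difference differed between even and odd arrays was not tested, because the array sets were chosen by Socs3.

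**Figure D3:**
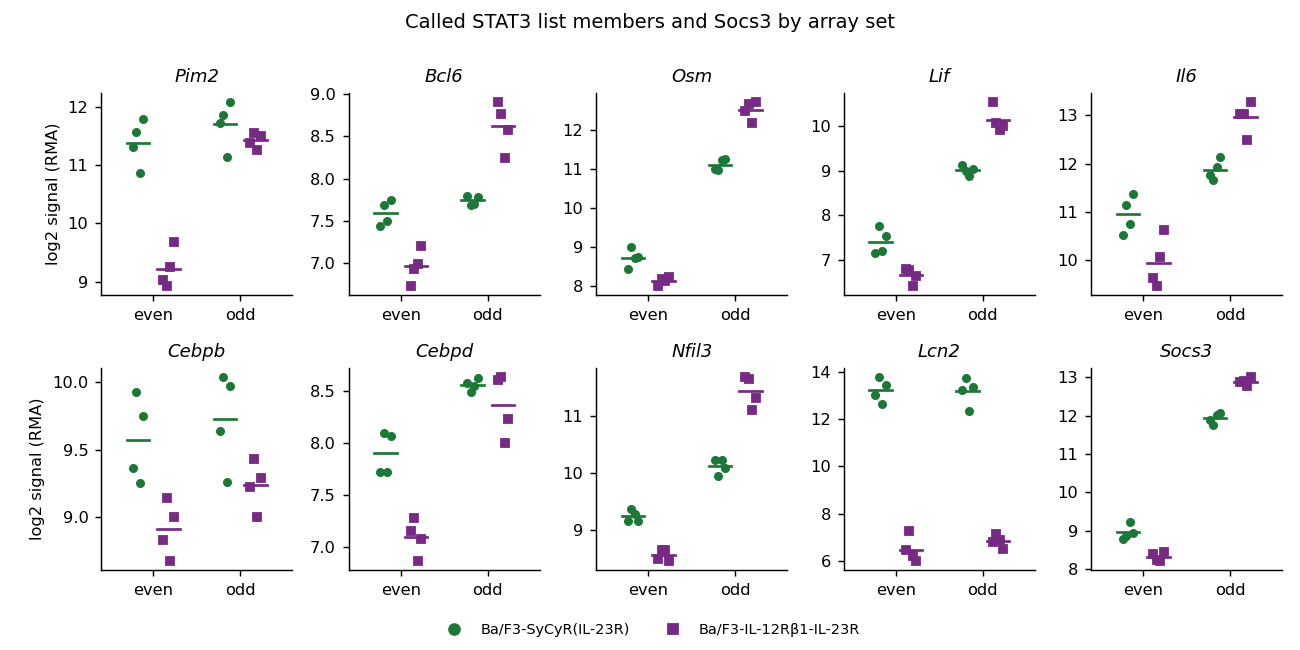
Log2 signal of the 9 STAT3 targets called higher in the synthetic line and of Socs3 on the even-numbered and odd-numbered arrays of the synthetic line (circles) and the natural line (squares), with the mean of each 4 arrays as a bar and an axis of its own for each gene. Osm, Lif, Nfil3, Bcl6, Il6 and Socs3 are higher in the synthetic line on the even arrays and lower on the odd ones, while Lcn2 is higher on both.

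Bcl6 was the only called STAT3 list member with a STAT-type motif next to its start in the sequences used, and its promoters are shown for that reason. RefSeq promoters of build GRCm38.p6 were given for 7 of the 9 genes, and the 250 bases before the start were searched on both strands for TTCNNNGAA, which 7.02% of 32851 promoters hold. Bcl6 has 2 starts in the table, on the minus strand of chromosome 16, at chr16:23988853-23989102 and chr16:23981284-23981533. The first holds 1 match and the second 3, in capitals here, and a match is a description of the letters, not evidence of a binding site.
Bcl6 first promoter: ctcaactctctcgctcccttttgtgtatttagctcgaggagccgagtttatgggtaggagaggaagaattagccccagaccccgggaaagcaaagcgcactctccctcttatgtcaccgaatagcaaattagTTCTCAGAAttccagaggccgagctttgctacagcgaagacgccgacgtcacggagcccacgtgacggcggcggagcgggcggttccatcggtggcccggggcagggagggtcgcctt
Bcl6 second promoter: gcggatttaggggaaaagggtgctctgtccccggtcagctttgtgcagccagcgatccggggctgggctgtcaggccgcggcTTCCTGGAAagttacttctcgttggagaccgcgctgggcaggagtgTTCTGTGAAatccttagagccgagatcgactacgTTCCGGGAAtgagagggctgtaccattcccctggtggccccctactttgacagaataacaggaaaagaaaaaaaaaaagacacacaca

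Of 20 measured NF-κB response genes 7 were higher, none was lower and 13 did not pass the test, where 1.63% of all genes were called higher. The list median of 0.42 was the highest of the 19 lists. The 7 were Ccl3, Ccl4, Tnf, Nfkbia, Nfkbiz, Tnip1 and Traf1. Ccl4, the chemokine gene next to Ccl3 on chromosome 11, read 7.53, 9.08, 7.10 and 8.09 in the synthetic line and lay between 6.46 and 6.75 in the natural line, which was in the background range (at least 2.61-fold, log2 difference 1.38, SE 0.32, adjusted p = 0.015 from limma). Tnf, the gene of tumor necrosis factor, read 7.47, 8.59, 7.34 and 7.85 against 6.74, 6.61, 6.07 and 6.54 (at least 2.50-fold, log2 difference 1.32, SE 0.24, adjusted p = 0.0037 from limma). In both genes arrays 16 and 20 of the synthetic line were its highest, as for Ccl3.

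Nfkbia encodes the inhibitor IκBα, a target that NF-κB switches on to limit itself. It read 11.10, 12.44, 10.55 and 11.96 in the synthetic line and 10.32, 10.64, 10.07 and 10.54 in the natural line. Array 18 of the synthetic line lay within the natural range (log2 difference 1.12, SE 0.33, adjusted p = 0.048 from limma). The call was lost on leaving out any 1 array other than this one. Nfkbiz (1.07), Tnip1 (1.05), an inhibitor with the deubiquitinase A20, and the signaling adaptor gene Traf1 (0.85) were the others, and their calls had smaller adjusted p-values (0.0002, 0.00022 and 0.00069 from limma). Nfkbiz lies on chromosome 16 as well, with a difference from Ba/F3-gp130 of 0.53 in the synthetic and of -0.54 in the natural line, and Traf1 was in the background range in both (medians 6.53 and 5.71). Without array 18 of both lines 11 of the 20 genes were higher. Among the odd arrays 6 were higher and none lower, beside 1.56% and 1.85% of all probe sets there. The median was 0.39, so this list, unlike the STAT3 list, had a median of the same sign in both array sets.

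The promoters of Nfkbia and Tnip1 are shown because they were the 2 of 5 called NF-κB list members with a RefSeq promoter that hold the κB consensus in the 250 bases before the start. It was searched on both strands and occurs in 3.90% of the 32851 promoters. Nfkbia lies on the minus strand at chr12:55492648-55492897, with its match starting 29 bases before the start. Tnip1 lies on the minus strand at chr11:54962941-54963190, where 3 overlapping matches form 1 run.
Nfkbia promoter: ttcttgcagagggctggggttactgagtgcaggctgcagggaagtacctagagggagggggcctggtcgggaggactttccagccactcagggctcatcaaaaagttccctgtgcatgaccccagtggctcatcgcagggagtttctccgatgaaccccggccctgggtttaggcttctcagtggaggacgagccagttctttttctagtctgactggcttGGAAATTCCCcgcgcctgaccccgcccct
Tnip1 promoter: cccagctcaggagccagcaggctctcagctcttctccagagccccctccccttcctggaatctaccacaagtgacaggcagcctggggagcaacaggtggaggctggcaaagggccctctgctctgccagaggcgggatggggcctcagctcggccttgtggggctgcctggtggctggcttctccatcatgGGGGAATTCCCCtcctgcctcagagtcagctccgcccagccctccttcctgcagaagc

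Of 33 immediate early and feedback genes of the ERK pathway 7 were higher and 1 was lower, beside 1.63% and 1.5% of all genes. The list median was 0.28. Dusp6, which encodes a phosphatase that switches ERK off, read 11.75, 12.02, 11.44 and 12.09 in the synthetic and 10.16, 10.58, 9.20 and 10.30 in the natural line, where array 18 was low. The lines did not overlap, and Dusp6 was 3.40-fold higher in the synthetic line (log2 difference 1.76, SE 0.25, adjusted p = 0.00076 from limma). Etv5 (1.18), an ETS transcription factor gene that ERK switches on, Ier3 (0.87), Dusp5 (0.86), Spred2 (0.81), Fosl1 (0.80) and Ier2 (0.60) were the other 6. The lines overlapped for Dusp5, whose call was lost without array 14, 18 or 20 of the natural or 14, 16 or 20 of the synthetic line. The nuclear receptor gene Nr4a2 (-0.80) was the lower one of the list. The genes Egr1, Spry1 and Fosb differed by 0.05, 0.04 and 0.27 and did not pass the test. On the odd arrays 3 were higher and 5 lower, beside 1.56% and 1.85% of all probe sets there, with a median of -0.05. Etv5 is another gene of chromosome 16.

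Of 23 ATF4 targets of the amino acid response 6 were higher, beside 1.63% of all genes, none was lower and the median was 0.19. Nupr1, a stress-induced chromatin protein gene, lay between 8.70 and 9.52 in the synthetic and between 7.21 and 7.53 in the natural line (log2 difference 1.90, SE 0.16, adjusted p = 1.8e-05 from limma). Slc7a11, which encodes the cystine transporter, read 10.48, 11.45, 9.98 and 10.87 against 8.76, 9.39, 8.56 and 9.33 (log2 difference 1.69, SE 0.28, adjusted p = 0.0022 from limma). Trib3 (0.80), Sesn2 (0.71), the serine synthesis gene Phgdh (0.71) and Cebpb (0.66) completed the 6, and Cebpb is counted in the STAT3 list too. Atf4 itself differed by 0.28 (adjusted p = 0.081 from limma). The odd arrays had 6 higher and none lower, beside 1.56% and 1.85% of all probe sets there, with a median of 0.20. Without array 18 of the natural or array 16 or 20 of the synthetic line 4 were called, and Trib3 was at the threshold (adjusted p = 0.048 from limma).

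Of 26 interferon response genes 6 were lower, 1 was higher and 19 did not pass the test, with a median of -0.17. Over all genes 1.5% were called lower and 1.63% higher. The 6 were Dhx58, Ddx58, Ifit2, Xaf1, Oas2 and Irf7, most of which sense or block viral RNA. Ddx58, the gene of the RNA sensor RIG-I, read 9.15, 9.34, 8.87 and 9.12 in the synthetic line and 10.51, 10.41, 10.07 and 10.19 in the natural line (log2 difference -1.18, SE 0.11, adjusted p = 5e-05 from limma). The synthetic line was at the level of Ba/F3-gp130 (8.79 to 9.44). Dhx58, which encodes its relative LGP2, differed by -1.48 or at least 2.8-fold (SE 0.14, adjusted p = 5.1e-05 from limma), its mean in the synthetic line being in the background range. Ifit2 differed by -1.13 (SE 0.09, adjusted p = 1.8e-05 from limma). The higher gene was Gbp3, a guanylate binding protein gene (at least 2.25-fold, log2 difference 1.17, SE 0.22, adjusted p = 0.0051 from limma). Mx1, Mx2 and Ifit3 were below 7.04 in both lines. Across the odd arrays 9 were lower and 1 was higher, beside 1.85% and 1.56% of all probe sets there.

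**Figure D4:**
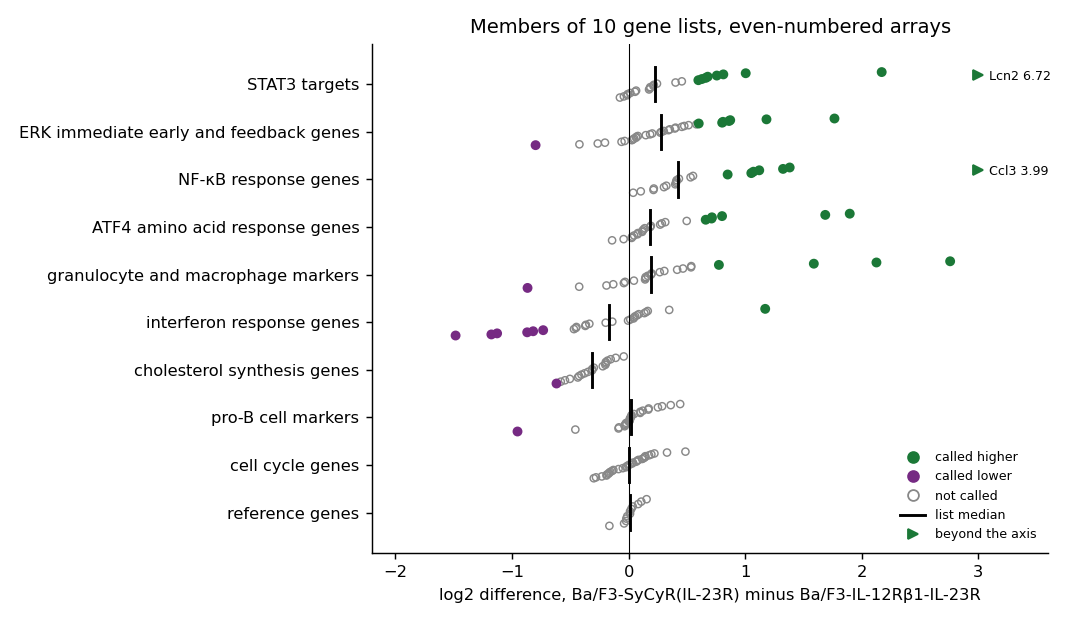
Log2 difference of each measured member of 10 gene lists between the 4 even-numbered arrays of the synthetic line and the 4 of the natural line, with called genes filled, other genes open, the list median as a bar and genes beyond the axis as triangles with their values. The medians of the NF-κB, ERK and STAT3 lists lie to the right of 0 and those of the interferon and cholesterol synthesis lists to the left, while cell cycle and reference genes hold no called gene.

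Of 25 glycolysis and hypoxia genes 5 were higher, beside 1.63% of all genes, and none lower, with a median of 0.08. The glucose transporter gene Slc2a1 lay between 10.91 and 11.37 in the synthetic and between 10.11 and 10.27 in the natural line (log2 difference 0.98, SE 0.09, adjusted p = 4.8e-05 from limma). Hk2 (0.69), Bnip3 (0.66), Pgam1 (0.64) and Slc2a3 (0.62) were the others, and the lines overlapped for Hk2 and Bnip3. Leaving out any 1 array of the natural line, or array 14 or 18 of the synthetic line, left 3 calls in this list, and Bnip3 was at the threshold (adjusted p = 0.05 when rounded, from limma). On the odd arrays 2 were higher and none lower, beside 1.56% and 1.85% of all probe sets there, with a median of 0.02. Slc2a1 differed there by 0.28 (adjusted p = 0.17 from limma), Hk2 by 0.02 and Slc2a3 by 0.07, while Bnip3 differed by 0.95 and Pgam1 by 0.69.

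Of 20 cholesterol synthesis genes Idi1 alone was called lower (-0.62, SE 0.13, adjusted p = 0.0088 from limma), where 1.5% of all genes were. The list median was -0.31. Idi1 read 10.05, 9.84, 10.61 and 10.21 in the synthetic line and 10.74, 10.84, 10.81 and 10.81 in the natural one, with array 18 of the synthetic line the nearest. In this list 9 genes did not overlap between the 4 and 4 arrays, all lower in the synthetic line. Of all probe sets 16.6% did not overlap, in either direction. The others of these 9 stayed below 1.5-fold, such as Dhcr7 (-0.58) and Cyp51 (-0.55). Without array 18 of both lines 4 were called lower, without array 18 of the synthetic line 3, without array 20 of the synthetic or array 16 or 18 of the natural line 2, and without array 14 or 16 of the synthetic line 0.

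Cell cycle genes and reference genes held no call among 30 and 12 genes at these thresholds in limma, where 9 and 1 had an unadjusted p under 0.05. Their medians were 0.00 and 0.01. Ccnd2, a D-type cyclin gene, had the largest difference of the first list at 0.49 (adjusted p = 0.0042 from limma), short of 1.5-fold. Gusb had the largest of the second at -0.17 (adjusted p = 0.24 from limma). Of 22 Bcl2 family and p53 target genes 3 were higher and 1 lower, beside 1.63% and 1.5% of all genes. Higher were Zmat3 (0.86), Sesn2 (0.71) and Aen (0.68). The death gene Bcl2l11, which encodes BIM, was lower (-0.88, SE 0.15, adjusted p = 0.0031 from limma).

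Chemokines and their receptors had 5 of 23 genes higher and 1 lower, beside 1.63% and 1.5% of all genes. Cxcr2, a neutrophil chemokine receptor gene, read 9.94, 9.84, 9.64 and 10.37 in the synthetic and 7.94, 8.52, 6.72 and 7.58 in the natural line (log2 difference 2.25, SE 0.30, adjusted p = 0.00055 from limma). Ccl6 (at least 2.71-fold) and Ccl9 (log2 difference 1.09), neighbors of Ccl3 and Ccl4 on chromosome 11, were higher too. Ccr2, the receptor gene for CCL2 on monocytes, was the lower one, with 8.50 to 8.91 against 10.30 to 11.10 (log2 difference -1.95, SE 0.14, adjusted p = 7.5e-06 from limma). The synthetic line overlapped with Ba/F3-gp130 (8.61 to 8.91).

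Of 23 granulocyte and macrophage markers 4 were higher and 1 lower, beside 1.63% and 1.5% of all genes, with a median of 0.19. The mean of the list lay between 7.24 and 7.39 on the arrays of the synthetic and between 6.84 and 6.99 on those of the natural line. The granule protease gene Ctsg read 8.52, 9.61, 7.40 and 8.49 in the synthetic line and 5.74, 5.40, 5.95 and 5.91 in the natural line (at least 6.76-fold, log2 difference 2.76, SE 0.35, adjusted p = 0.00035 from limma). Itgam, the integrin gene for CD11b, differed by 2.12 (SE 0.25) and Lyz2, the lysozyme gene, by 1.59 (SE 0.12), the natural line being in the background range for all 3. Fcgr3 (0.77) was the fourth, with a median of 6.62 in the natural line, in the background range. Mrc1 (-0.87) was lower, with medians in the background range in both lines (5.68 in the synthetic and 6.45 in the natural line).

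Of the defining markers of this type Elane, Csf1r and Csf3r were below 7.04 on all 8 arrays and Prtn3 was above it on all 8, at means of 11.74 and 11.47. Their part in the differences of Lcn2, Ccl3 and Cxcr2 was not tested, and in bulk RNA fewer cells of a type and less RNA per cell cannot be told apart. The small counts of the next lists stand beside 1.63% of all genes called higher and 1.5% called lower. Of 16 mast cell and basophil markers Fcer1a was higher (1.57, SE 0.33, adjusted p = 0.0095 from limma). Kit, Cpa3 and Mcpt8 were below 7.04 on all 8 arrays, and Gata2 was above it on all 8, at means of 12.91 and 12.5. Of 14 erythroid and megakaryocyte markers the integrin gene Itgb3 (-1.64, at least 3.11-fold) and the platelet glycoprotein gene Gp9 (-1.34) were lower. The call of Gp9 was lost without array 14 or 16 of the natural or array 16 or 18 of the synthetic line, while 3 markers were called without array 18 of the natural line. Of 25 pro-B cell markers Cd79a was lower (-0.95, SE 0.10, adjusted p = 0.00011 from limma). Of 19 T cell and NK cell markers none was called in limma, 4 having an unadjusted p under 0.05 (1 was called lower without array 16 of the synthetic line), and the nearest was Nkg7 (0.52, adjusted p = 0.0015 from limma). Of 16 antigen presentation genes the peptide transporter genes Tap1 (-0.64) and Tap2 (-0.76) were lower and Cd74 (0.67, at least 1.59-fold) was higher. Without array 16 of the natural line neither transporter was called, and Cd74 lost its call without any 1 of 5 arrays.

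The genes of chromosome 16 were shifted together. Over its 334 genes with a mean signal above 7.04 the median difference was 0.33 and 90.4% were higher in the synthetic line, while each of the 19 other chromosomes had a median from -0.04 to 0.03. This pattern was known from earlier results of these data and is described with no test. The median deviation of these genes from their mean over the 8 arrays was 0.13, 0.17, 0.15 and 0.18 on arrays 14, 16, 18 and 20 of the synthetic line and -0.17, -0.17, -0.17 and -0.13 on those of the natural line. Every array of a line was on the same side. Of 648 chromosome 16 genes 55 were called higher and 4 lower, or 9.10%, against 3.13% of all genes and 1.78% to 4.57% on the other chromosomes.

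The shift ran along the whole chromosome. In 11 runs of 30 or 31 neighboring genes the median lay between 0.27 and 0.39. Beside the parental cells the same genes had a median of -0.02 in the synthetic line and of -0.37 in the natural line, and the runs lay between -0.05 and 0.03 in the first and between -0.43 and -0.26 in the second. On the odd arrays the median between the 2 lines was 0.37. With dim genes included it was 0.11 over the 648 genes on the even arrays.

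Apart from B3gnt5 and Klhl6, the largest fitted differences on chromosome 16 were those of Jam2 and Csta3. Jam2, which encodes a junctional adhesion molecule, went against the shift, with 8.00 to 8.22 in the synthetic and 9.87 to 10.27 in the natural line (log2 difference -1.96, SE 0.09, adjusted p = 9.7e-08 from limma). Csta3, a stefin A family gene of close copies whose probes may share signal, read 6.39, 8.35, 6.47 and 7.19 against 5.10 to 5.34, so that all arrays of the natural line and arrays 14 and 18 of the synthetic line were in the background range (at least 3.62-fold, fitted log2 difference 1.86, SE 0.34, adjusted p = 0.004 from limma). Ifngr2 and Il10rb, the cytokine receptor genes higher in the synthetic line, lie 2 genes apart on this chromosome.

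**Figure D5:**
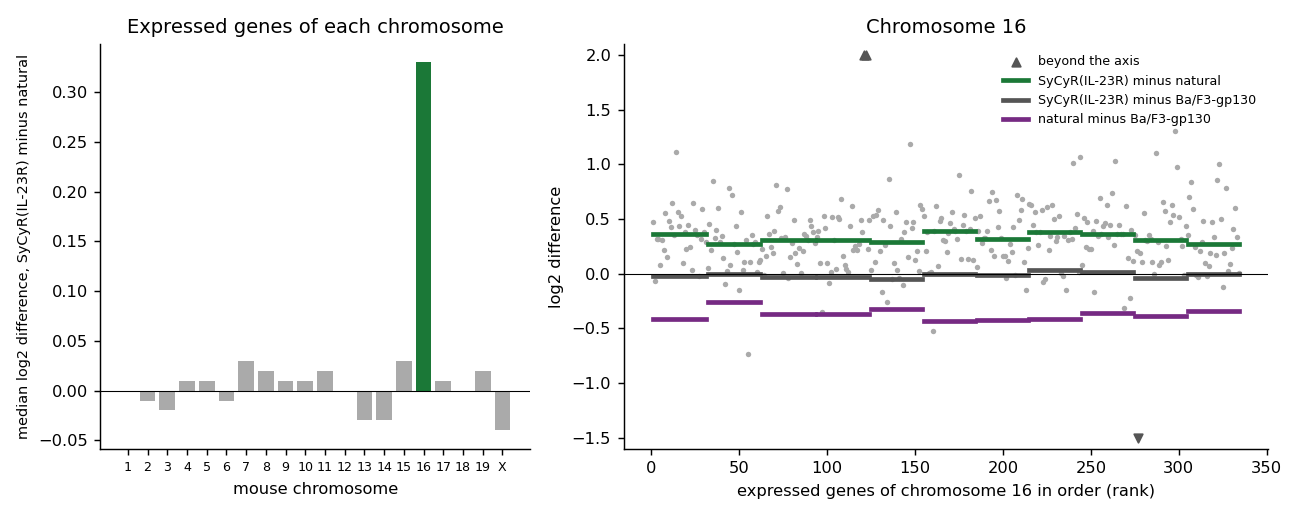
Left, median log2 difference per chromosome over genes with a mean signal above 7.04, between the even-numbered arrays of the synthetic line and the natural line (the natural receptor). Right, the difference of each of the 334 expressed chromosome 16 genes in gene order (dots, triangles beyond the axis), with bars for the median of 11 runs of 30 or 31 genes in this comparison and in each line against Ba/F3-gp130, all even-numbered arrays. The bars of the natural line lie below 0 along the chromosome and those of the synthetic line against Ba/F3-gp130 lie between -0.05 and 0.03.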

How the data were processed

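Total RNA of 4 Ba/F3 lines was hybridised to Affymetrix Mouse Gene ST arrays, 8 per line. The authors made the deposited log2 values with RMA and sketch-quantile normalization in Expression Console, and no scanner files were used here. The table holds 35556 probe sets and 0 columns without a sample. Groups came from the titles, which give the line and a number, and the even numbers were taken from each line.

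In the platform annotation 21789 probe sets had 1 symbol, 1621 had more than 1 and 12146 had none. Symbols were updated through gene identifiers of GRCm38.p6, in which 21695 matched. The 23410 probe sets with a symbol were tested with limma 3.58.1 in R 4.3.3 (lmFit, eBayes, no covariate) on the 8 arrays, and a call needed a p under 0.05 after Benjamini-Hochberg adjustment and a difference of 1.5-fold. Both lines were compared with Ba/F3-gp130 in 1 fit of all even arrays, and the odd arrays in a fit of their own. A gene was represented by its brightest probe set. Tables and plots were made in Python 3.11.15 with pandas 2.3.3, numpy 2.4.6 and matplotlib 3.10.9.

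The number of arrays limits the precision.

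Named genes were the receptor and IL-3 family chains, Socs3, the 12 genes with the largest difference in each direction among calls without overlap, up to 4 called members per list (or 1 not called where none was), and 4 genes of chromosome 16. Further list members are named as examples of their counts, chosen after their values were seen. The arrays, the lists and this rule were chosen with earlier results of these data known. Socs3 was left out of list counts. Same-numbered arrays of the 2 lines deviated from their group means together (correlations 0.297 to 0.440, against -0.341 to 0.046 for other numbers), so the numbers may pair arrays. No label states such a pairing. The SEs, intervals and adjusted p-values in the text come from the fit without it. With the array number as a block in limma some adjusted p-values were smaller, such as Nfkbia (0.0047), Il6 (0.0025), Trib3 (0.0063) and Dusp5 (0.00013). Others were larger, such as Il23r (8.2e-09). Alternatives were other filters, normalizations, fits and thresholds, the array number as a block, and leaving out arrays.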

Additional observations from a re-analysis of the deposited data

Results flagged for a closer look

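In 152 groups of 4 arrays, the even-numbered arrays of each line for each named gene, 5 held an array whose gap to the nearest other array exceeded Dixon's 95% limit as a share of the range of the group, and chance flags about 1 in 20 such groups. Array 18 of Ba/F3-SyCyR(IL-23R) was the low one for Il12rb1, at 8.04 beside 8.24 to 8.27 (0.890 of the range), and for Il12rb2, at 9.73 beside 10.16 to 10.20 (0.908). Array 18 of Ba/F3-IL-12Rβ1-IL-23R was low for Itgb3, at 7.58 beside 8.43 to 8.59 (0.839). Array 16 of that line was low for Ifit2, at 8.23 beside 8.57 to 8.63 (0.858), and high for Trib3, at 9.19 beside 8.79 to 8.85 (0.856).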

How the results depend on the processing

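The 704 calls (355 higher, 349 lower) became 265 (126 and 139) with a 2-fold limit. With all probe sets the lower ones became 679, since 350 of the 12146 probe sets without a symbol were lower and 30 higher. Other settings stayed within 1.5 times, with 598 calls without dim probe sets, 709 with all even arrays in the fit, 802 without array 18 of both lines and 730 after median centring. Leaving out 1 array gave 671 to 771 calls (318 to 411 higher, 329 to 410 lower). With the array number as a replicate block 724 were called (370 higher, 354 lower), all 704 among them, and the block changed no call of a named gene. Without dim probe sets 1 granulocyte and macrophage marker was higher and none lower. The chromosome 16 median, 0.33, was 0.11 with dim genes included, 0.37 after median centring and 0.32 to 0.34 without 1 array. Of 68 called named genes other than Socs3, 13 lost the call under some setting that kept the threshold, all keeping their direction, among them Nfkbia, Trib3, Dusp5, Bnip3, Cd74 and Il6. Signals below 7.04 limit what can be said of the dimmer line. The cause of each change was not tested.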
